A study of Mus musculus with 8 samples.

Results

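Ptgfrn, Dock1, Rassf4, Krt18, Uaca, Spsb4, Exoc3l4, Adamts20 and Il6 are 9 genes whose array signal was higher in Ikaros-deficient than in wild-type thymocyte precursors. They were selected on that measured difference in level, IkL/L above WT under vehicle or under a Notch pathway inhibitor, so the genotype difference, and the changes with GSI tied to it, are described here and not tested. They are 9 of the 18193 genes measured, and 14 of the 45101 probe sets name one of them. RNA levels were read from 8 Affymetrix mouse arrays, with 2 arrays for each of 4 groups: wild type (WT) with DMSO, WT with GSI, IkL/L with DMSO and IkL/L with GSI. GSI is the gamma-secretase inhibitor MRK-003, given for 16 h at a dose labelled 5 mM, and DMSO is its vehicle. All groups came from lineage-negative thymocytes grown on OP9 DL1, a stromal line that displays a Delta-like Notch ligand, so the controls received Notch signals too. From these cultures DN3 cells, which lack lineage markers and CD44 and carry CD25, were sorted. The age of the mice, and whether animals were pooled, are not given in the sources used here. The labels do not state whether the 2 samples of a group had separate animals or cultures as their source, so p-values reflect just how far these samples lay apart, which may be technical.

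Ikaros, encoded by Ikzf1, is a zinc finger transcription factor that silences genes of other lineages and Notch target genes during lymphocyte development. IkL/L mice carry, on both copies of Ikzf1, an allele that lowers Ikaros without abolishing it. Notch receptors signal when gamma-secretase frees their intracellular part, which joins the DNA-binding protein RBPJ, and DN3 cells depend on that signal. The 9 genes do unrelated jobs. Spsb4 is a substrate adaptor of elongin-cullin ubiquitin ligases, Exoc3l4 is a relative of an exocyst subunit, and Adamts20 is a secreted metalloprotease. Ptgfrn is an immunoglobulin-family membrane protein that binds tetraspanins, Uaca is an ankyrin-repeat and coiled-coil protein linked to apoptosis, and Dock1 activates the small GTPase RAC together with ELMO proteins. Rassf4 belongs to the RAS-association domain family, Krt18 is the keratin that pairs with Krt8 in simple epithelia, and Il6 is an inflammatory cytokine.

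The labels were checked against the arrays first. Ikzf1 stood at a log2 level of 11.95 and 12.17 with DMSO in WT and at 11.14 and 11.19 in IkL/L, a difference of -0.90 ± 0.14 (SE; limma, adjusted p = 0.0222). Under GSI its difference was -0.43 ± 0.14 (limma, adjusted p = 0.299), and leaving out any 1 of the 4 DMSO arrays ended the DMSO call (adjusted p from 0.0684 to 0.207). Averaged over genotypes, the Notch target Dtx1 fell by 4.38 with GSI on the log2 scale, Hes1 fell by 1.91, Ptcra fell by 1.99 and Il2ra fell by 2.27. Markers of DN3 cells averaged 11.34 to 11.82 on every array. Of these, Ptcra was lower in IkL/L under GSI (-1.06 ± 0.15; limma, adjusted p = 0.015), a call lost without any 1 of the IkL/L arrays. The 5 later thymocyte markers measured, such as Cd4 and Cd8a, averaged 7.10 to 7.30 over the WT arrays. In IkL/L they averaged 7.53 and 7.77 with DMSO, and with GSI 8.43 on array 1 and 7.04 on array 2. The part of later thymocytes in the results was not tested. Stromal cell markers were also present and stood apart between replicates: the 28 measured averaged 6.96 and 6.19 with DMSO and 7.62 and 5.99 with GSI in WT, against 7.23 and 6.29 with DMSO and 7.27 and 6.65 with GSI in IkL/L. Cd44, whose product the gate left out, ranged from 5.57 to 7.18. For scale, 11 genes of unrelated tissues had mean levels from 2.87 to 6.62, with a median of 4.34, so a level near 4 cannot be told from background and a fold against it may understate the difference.

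Spsb4, Exoc3l4 and Adamts20 were high in a single group, IkL/L with DMSO. Spsb4 read 4.58 and 3.61 with DMSO and 3.60 and 3.36 with GSI in WT, against 7.38 and 8.33 with DMSO and 3.71 and 3.78 with GSI in IkL/L. Both IkL/L DMSO arrays thus lay above all others, and under GSI the IkL/L signal was back near the WT level. The group means were 4.10 ± 0.69 (SD, n = 2) and 7.85 ± 0.67 with DMSO, 13.5-fold apart, against 3.48 ± 0.17 and 3.74 ± 0.05 with GSI, 1.20-fold apart. Within IkL/L the GSI level was 17.3-fold below the DMSO level. Exoc3l4 read 4.27 and 3.98 with DMSO and 4.02 and 3.97 with GSI in WT, against 7.45 and 6.81 with DMSO and 4.12 and 4.40 with GSI in IkL/L. The pattern matched that of Spsb4, with an 8.02-fold genotype difference under DMSO and a log2 difference of 0.26 under GSI. Adamts20 was the dimmest of the 9 and read 3.04 and 3.52 with DMSO and 3.07 ± 0.10 (SD, n = 2) with GSI in WT, against 4.56 and 4.68 with DMSO and 3.16 and 2.92 with GSI in IkL/L. Its IkL/L DMSO arrays lay 2.53-fold above WT on average, yet at a level that genes of unrelated tissues also reach. Under GSI the genotypes overlapped for Adamts20.

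**Figure D1:**
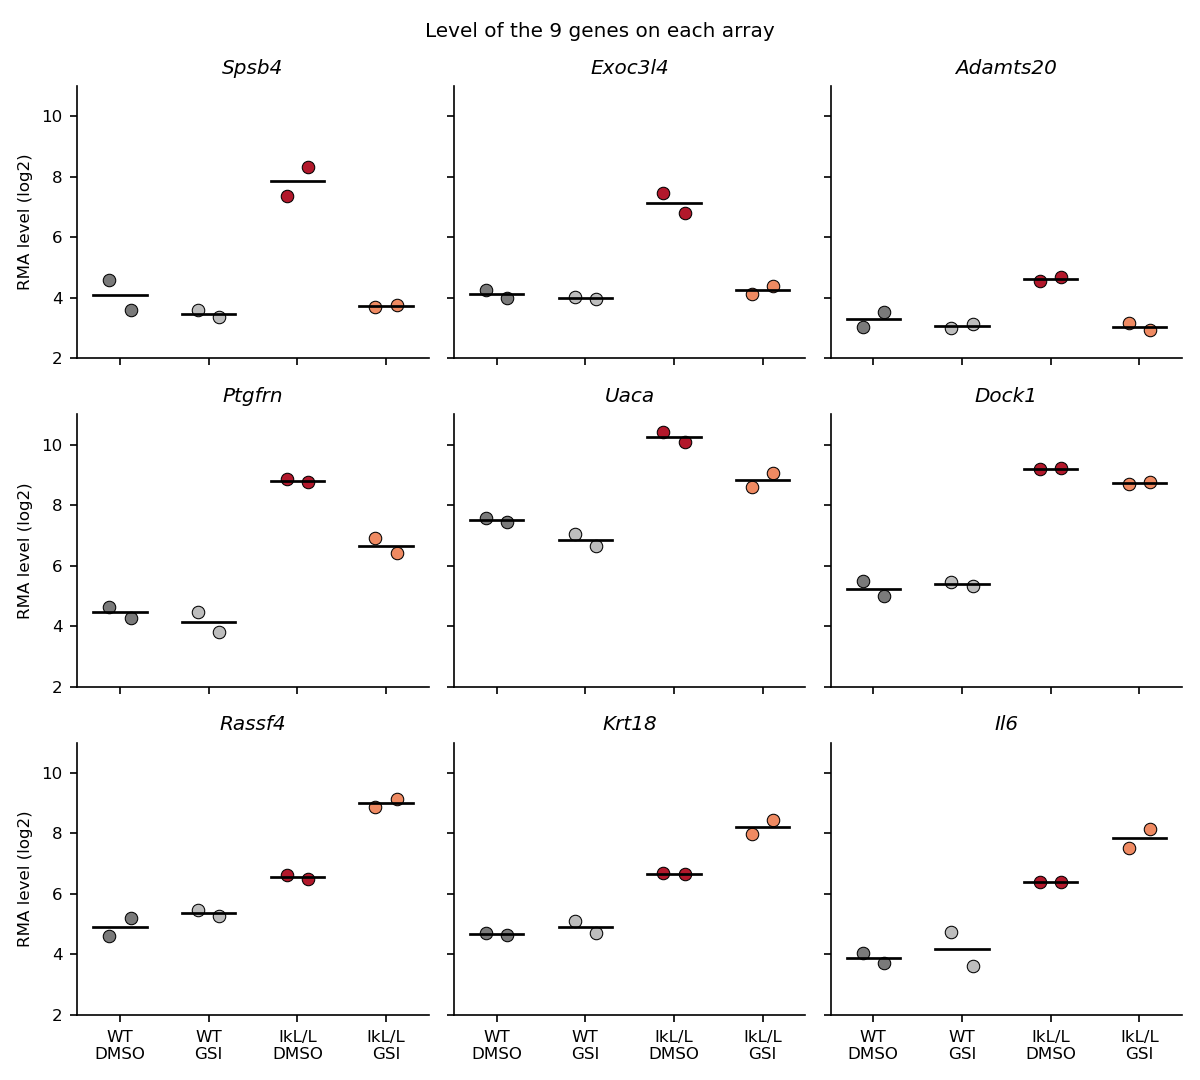
Each panel shows the log2 RMA level of 1 gene on the 8 arrays, with a point per array and a line at the mean of each group of 2. The top row is high in IkL/L DMSO and near the WT level in IkL/L GSI, the middle row is high in both IkL/L groups, and the bottom row is highest in IkL/L GSI, where Rassf4 reached 8.86 and 9.13.

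Ptgfrn, Uaca and Dock1 were high in IkL/L under both treatments. Ptgfrn read 4.64 and 4.28 with DMSO and 4.48 and 3.82 with GSI in WT, against 8.85 and 8.76 with DMSO and 6.91 and 6.41 with GSI in IkL/L. It was 20.3-fold higher with DMSO, rank 3 among all genes, and 5.70-fold higher under GSI. The WT arrays were near background, and within IkL/L the GSI arrays lay 4.42-fold below the DMSO arrays. Uaca was the one gene of the 9 with a clear WT signal, at 7.58 and 7.43 with DMSO and 7.05 and 6.66 with GSI. In IkL/L it read 10.40 and 10.09 with DMSO and 8.59 and 9.06 with GSI, which is 6.68-fold and 3.92-fold above WT. GSI arrays lay below DMSO arrays in both genotypes, with differences of -0.65 in WT and -1.42 in IkL/L on the log2 scale. Dock1 read 5.49 and 4.98 with DMSO and 5.45 and 5.32 with GSI in WT, against 9.18 and 9.22 with DMSO and 8.70 and 8.75 with GSI in IkL/L. It was the steadiest of the set, 15.6-fold above WT with DMSO and 10.1-fold with GSI.

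Rassf4, Krt18 and Il6 were higher in IkL/L than in WT under DMSO and higher again under GSI. Rassf4 read 4.62 and 5.21 with DMSO and 5.47 and 5.28 with GSI in WT, against 6.61 and 6.48 with DMSO and 8.86 and 9.13 with GSI in IkL/L. The genotype difference was 3.09-fold with DMSO and 12.3-fold with GSI, and the IkL/L groups did not overlap. Krt18 read 4.72 and 4.64 with DMSO and 5.10 and 4.69 with GSI in WT, against 6.71 and 6.64 with DMSO and 7.97 and 8.45 with GSI in IkL/L. Its genotype difference went from 3.99-fold with DMSO to 9.93-fold with GSI, while WT stayed near background. Il6 read 4.04 and 3.71 with DMSO and 4.73 and 3.62 with GSI in WT, against 6.40 and 6.39 with DMSO and 7.52 and 8.15 with GSI in IkL/L. The difference was 5.76-fold with DMSO and 12.6-fold with GSI. The WT GSI arrays of Il6 were 1.11 apart, and the higher of them was also the array with the highest stromal marker mean.

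The choice of genes fixed how often the genotypes separated, so these counts are given as a description. Under DMSO all 9 genes had both IkL/L arrays above both WT arrays with means at least 2-fold apart, against 1.03% of all genes. Under GSI 6 of 9 did so, against 1.5%, and the others were the 3 genes high with DMSO only. Their rank by genotype difference among all genes ran from 3 for Ptgfrn to 109 for Adamts20 with DMSO. With GSI it ran from 7 for Il6 to 8612 for Adamts20. As RNA was taken from bulk samples, fewer cells that express a gene and less RNA per cell cannot be told apart.

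The average change with GSI over both genotypes is given as a description as well. Where a gene was flat and near background in WT, its average largely follows from which IkL/L group it was high in, so its direction is tied to the choice of genes and no p is given. In the limma fit over all genes 5 of the 9 lay past the threshold as lower and 3 as higher, where 23.3% of all genes passed (12.5% lower, 10.8% higher), and nothing is read from that count. The 3 genes high with DMSO only had the values -2.36 ± 0.26 (SE, log2 scale) for Spsb4, -1.50 ± 0.15 for Exoc3l4 and -0.90 ± 0.11 for Adamts20. Of the genes high under both treatments, Ptgfrn had -1.23 ± 0.19, Uaca -1.03 ± 0.17 and Dock1, the one gene not past the threshold, -0.17 ± 0.15. Uaca, with a WT signal above background, had GSI arrays below DMSO arrays in both genotypes. The 3 genes highest in IkL/L with GSI had 1.45 ± 0.16 for Rassf4, 0.88 ± 0.15 for Krt18 and 0.87 ± 0.25 for Il6. Il6 was past the threshold in 7 of 15 alternatives, and not without either IkL/L DMSO array, either WT DMSO array or IkL/L GSI array 2, where its value ran from 0.71 to 0.95. The median over the 9 genes was -0.90, against -0.00 over all genes.

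This average weighs the genotypes equally, and the arrays of the 9 genes moved mostly in IkL/L. Within IkL/L, GSI arrays lay wholly below DMSO arrays for 6 genes and above for 3, where 35.9% and 26.5% of all genes did so. Within WT they lay below for Uaca and Spsb4 and above for Rassf4, against 19.8% and 24.2% of all genes. The difference between the 2 genotypes' GSI responses is built from the contrasts that chose the genes and was not tested.

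**Figure D2:**
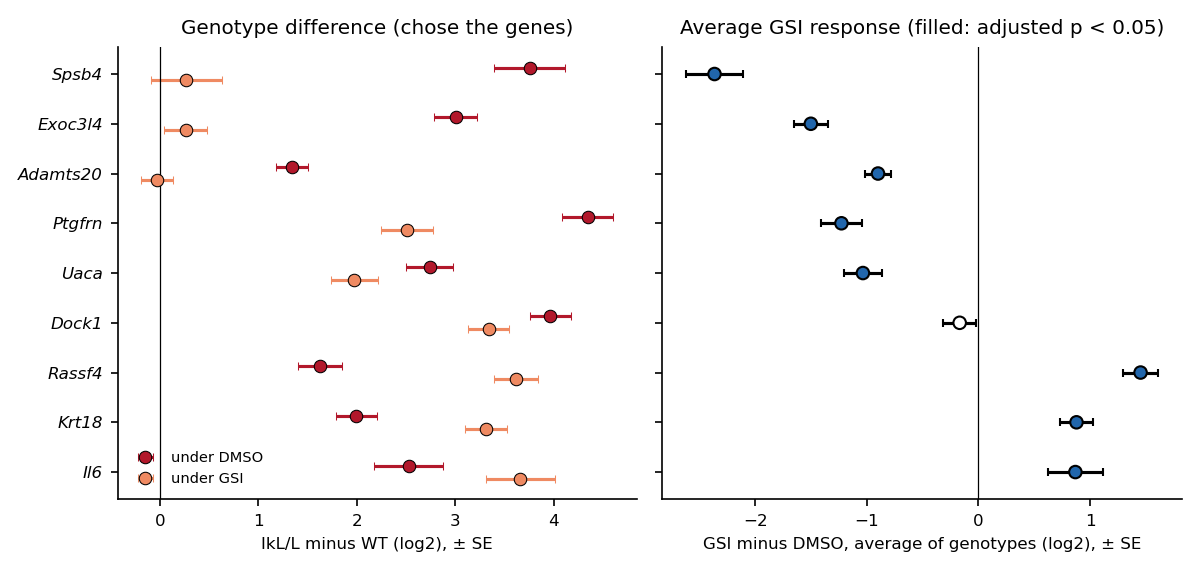
The left panel gives the difference IkL/L minus WT of each gene under DMSO and under GSI in log2 units, which chose the genes, and the right panel gives the average GSI minus DMSO change over genotypes, both with the limma standard error over 8 arrays. Filled points on the right lay past the threshold of an adjusted p below 0.05: the change ran from -2.36 for Spsb4 to 1.45 for Rassf4, and Dock1 at -0.17 is open. The filling is a description, since the direction of the change is tied to the choice of genes.

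Other probe sets of the same genes did not always follow. The second probe set of Spsb4 read 4.45 and 4.02 with DMSO in WT, against 6.55 and 6.91 with DMSO and 3.91 and 4.13 with GSI in IkL/L, the same pattern as the brighter one. A second probe set of Rassf4 had smaller differences of 1.04 with DMSO and 1.57 with GSI, and another stayed between 3.29 and 4.02. The second probe set of Ptgfrn stayed between 4.30 and 4.90 on all arrays, with a DMSO difference of 0.32 where the one used gave 4.35. In WT with DMSO the one used averaged 4.46 and the second 4.48, so the IkL/L arrays decided which had the higher mean. The fold and rank of Ptgfrn rest on that choice. For Spsb4 too the probe set used was not the brighter in WT (4.10 against 4.24 with DMSO). The second probe set of Dock1 stayed between 3.07 and 3.42, at background. Krt18, Uaca, Exoc3l4, Adamts20 and Il6 each had 1 probe set.

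Promoter sequences from RefSeq (build GRCm38.p6) were searched on both strands for the letters GGGAA, part of the sequences that Ikaros is known to bind, for TGGGAA, and for the RBPJ-type sequence GTGGGAA. Each window ran from 250 bases before to 50 bases after an annotated start, and all 9 genes matched the table. Every TGGGAA match is also a GGGAA match. GGGAA occurred for 6 of 9 genes, and in 62.7% of all windows. TGGGAA occurred for Il6, Dock1 and Adamts20, and in 25.6% of all windows. GTGGGAA occurred for none, and in 6.38% of all windows. The shares are those of all promoters, so the matches set the 9 genes apart in no way that these counts show. The last 120 bases before the start are printed for 2 genes with a TGGGAA match upstream that were high under both treatments, and for Spsb4, high with DMSO only and with no match, in transcript direction, with capitals at GGGAA or its reverse complement TTCCC.
Il6, chr5:30012994-30013113, plus strand: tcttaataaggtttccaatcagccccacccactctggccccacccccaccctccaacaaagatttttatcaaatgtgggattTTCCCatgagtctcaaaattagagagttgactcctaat
Dock1, chr7:134670567-134670686, plus strand: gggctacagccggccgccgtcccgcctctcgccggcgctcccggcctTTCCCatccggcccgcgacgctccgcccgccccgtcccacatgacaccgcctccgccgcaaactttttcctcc
Spsb4, chr9:97018356-97018475, minus strand: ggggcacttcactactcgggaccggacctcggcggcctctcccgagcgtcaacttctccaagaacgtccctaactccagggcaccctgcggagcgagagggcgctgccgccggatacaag
The match of Il6 begins 38 bases and that of Dock1 73 bases before the start.

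Relatives and known partners of the 9 genes, which the rule for the 9 genes had not used, were tested for the genotype difference. Their lists were drawn up with earlier results of these data known, so the counts and p-values are not independent of the data. Of 117 listed genes 106 were measured. Under DMSO 5 were higher and 1 lower in IkL/L, which is 5.66% of them against 1.74% of all genes. Under GSI 6 were higher and none lower, again 5.66%, against 1.46% of all genes. The medians of the 106 genes were 0.07 and -0.01, so most relatives did not follow the 9 genes. The DMSO count rested on single arrays: it was 0 without either IkL/L DMSO array or without WT DMSO array 1 (limma, with 15, 12 and 14 genes at an unadjusted p below 0.05), 1 without WT DMSO array 2 and 3 without either IkL/L GSI array. The GSI count was 2 without IkL/L GSI array 2.

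Around Ptgfrn, the surface protein, 2 of 7 measured genes were higher in IkL/L under both treatments. Igsf3, an immunoglobulin-family relative, read 6.50 and 6.41 with DMSO and 5.39 and 5.34 with GSI in WT, against 7.90 and 8.23 with DMSO and 7.91 and 7.39 with GSI in IkL/L. Its groups did not overlap between genotypes, and it was 3.06-fold higher with DMSO (1.61 ± 0.22 on the log2 scale; limma, adjusted p = 0.012) and 4.88-fold higher with GSI (2.29 ± 0.22; limma, adjusted p = 0.00216). The GSI call held in all 16 alternatives, while leaving out any 1 of the 4 DMSO arrays ended the DMSO call (adjusted p from 0.0626 to 0.114). Cd81, a tetraspanin that Ptgfrn binds, was higher by 1.59 ± 0.27 with DMSO (limma, adjusted p = 0.0286) and by 1.43 ± 0.27 with GSI (limma, adjusted p = 0.0487). The GSI call of Cd81 was lost in 12 of 16 alternatives, among them without any array other than WT GSI array 1 (adjusted p from 0.0796 to 0.314). Its DMSO call was lost in 7 of 16, among them without any array other than those of WT GSI (adjusted p from 0.0513 to 0.229). With GSI on average, Igsf3 fell by 0.75 and Cd81 fell by 0.65 (adjusted p = 0.0418, a call lost in 8 of 16 alternatives), whereas the tetraspanin Cd151 rose by 1.11.

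Around Dock1, 2 of 17 relatives and RAC partners were higher with DMSO and 1 with GSI. Dock6, an exchange factor of the same family, read 6.45 and 6.51 with DMSO and 6.21 and 6.38 with GSI in WT, against 7.46 and 7.45 with DMSO and 8.69 and 8.83 with GSI in IkL/L. It was 5.53-fold higher in IkL/L with GSI (2.47 ± 0.17; limma, adjusted p = 0.000498), a call kept in all 16 alternatives. With DMSO it was 1.97-fold higher (limma, adjusted p = 0.0304), a call lost in 8 of 16, among them without any array other than those of WT GSI (adjusted p from 0.0666 to 0.267), and its dimmer probe set lay between 4.66 and 4.99 throughout. Dock5 was higher by 1.42 ± 0.24 with DMSO (limma, adjusted p = 0.0269; lost without either IkL/L DMSO array or WT DMSO array 1, adjusted p from 0.138 to 0.197) and differed by 0.65 with GSI (limma, adjusted p = 0.363). With GSI on average Dock5 fell by 1.81, and Elmo1, a partner of Dock1, fell by 0.65 (limma, adjusted p = 0.00958).

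Around Rassf4, 1 of 11 genes passed in each genotype comparison. Rassf8 was higher by 1.47 ± 0.18 with DMSO (limma, adjusted p = 0.00796) and by 1.61 ± 0.18 with GSI (limma, adjusted p = 0.00471). With the mean of its 3 probe sets it was higher by 0.62 in both and passed in neither (adjusted p = 0.053 and 0.0589), as the other 2 probe sets stayed at 5.15 or below on all arrays. Leaving out any 1 of the 4 DMSO arrays also ended the DMSO call (adjusted p from 0.0595 to 0.0994), and the GSI call without IkL/L GSI array 2 (adjusted p = 0.056). On average GSI raised Rassf2 by 0.62 and the kinase Stk4, which binds RASSF proteins, by 0.62.

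Around Krt18, 1 of 11 keratins and partners passed, and it was Krt8, the partner in the filament and the next gene on chromosome 15. Krt8 read 4.66 and 4.62 with DMSO and 4.73 and 4.83 with GSI in WT, against 4.57 and 5.51 with DMSO and 6.35 and 6.89 with GSI in IkL/L. With GSI it was 3.59-fold higher in IkL/L (1.84 ± 0.30; limma, adjusted p = 0.0246). With DMSO it differed by 0.40 ± 0.30 (limma, adjusted p = 0.793), where Krt18 itself was 2.00 apart. The GSI call was lost without any 1 of the 4 GSI arrays (adjusted p from 0.0643 to 0.188), and the other 2 probe sets of Krt8 gave 2.26 and 1.87. Plec, a linker of keratin filaments, did not pass between genotypes and rose by 1.19 with GSI on average.

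Around Exoc3l4, 1 of 12 exocyst genes and relatives passed. Exoc3l read 5.14 and 5.44 with DMSO and 5.36 and 5.61 with GSI in WT, against 5.58 and 6.09 with DMSO and 7.14 and 7.95 with GSI in IkL/L. It was higher by 2.06 ± 0.29 with GSI (limma, adjusted p = 0.0137), the treatment in which Exoc3l4 was near its WT level, and by 0.55 with DMSO (limma, adjusted p = 0.638). The GSI call was lost without IkL/L GSI array 2 (adjusted p = 0.0793) or WT GSI array 1 (adjusted p = 0.0526). The exocyst subunits Exoc6b and Exoc4 rose with GSI on average by 0.82 and 0.58.

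No relative or partner passed between genotypes for Uaca (5 measured), Spsb4 (10) or Adamts20 (15), by limma. The lack of a call does not show that they were alike in both genotypes. Adamts3 differed by 1.06 ± 0.24 with DMSO (limma, adjusted p = 0.0821). Vcan, listed as a substrate, differed by 1.18 ± 0.57 with DMSO and 1.40 ± 0.57 with GSI. Both had their IkL/L arrays above their WT arrays under each treatment. Adamts6 differed by -0.81 with DMSO, and the medians of the Adamts20 list were 0.06 and -0.03. With GSI on average cytochrome c (Cycs) fell by 1.17, and of the ubiquitin ligase subunits Cul2 fell by 0.64, Eloc fell by 0.54 and Elob fell by 0.36, a call lost in 8 of 16 alternatives. Adamts6 rose by 0.93 and Adamts10 by 0.88. Around Il6, 1 of 18 genes of its family, receptors and signalling passed: Clcf1, another cytokine of the IL-6 family, was lower in IkL/L with DMSO (-1.79 ± 0.34; limma, adjusted p = 0.0421), opposite to Il6. That call was lost in 8 of 15 alternatives, among them without any 1 of the 4 DMSO arrays (adjusted p from 0.125 to 0.322) and without either IkL/L GSI array (0.0981 and 0.0968). With GSI, 7 of the 18 rose on average and none fell, where 10.8% of all genes rose and 12.5% fell. Among the 7 were Clcf1 by 1.54, the feedback inhibitor Socs3 by 1.31 and the transcription factor Stat3 by 0.87. Il6ra, the receptor's binding chain, stood between 5.43 and 5.54 on every array. In all, 27 of the 106 relatives and partners rose and 9 fell with GSI on average, 34.0% against 23.3% of all genes (10.8% higher, 12.5% lower).

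**Figure D3:**
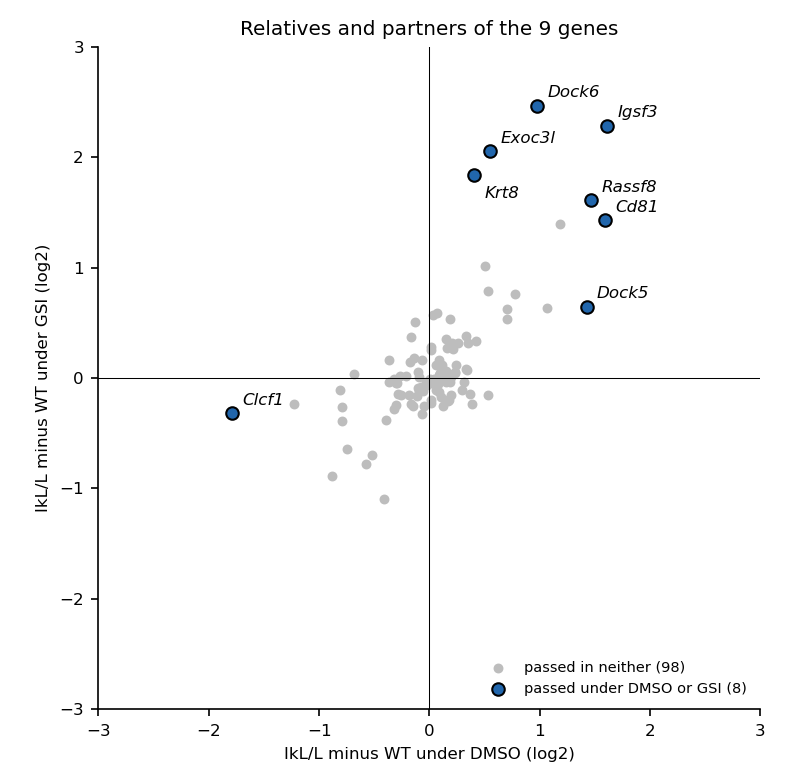
Each point is 1 of the 106 relatives and partners, placed by its difference IkL/L minus WT under DMSO (horizontal) and under GSI (vertical), both in log2 units. The 8 named genes passed at an adjusted p below 0.05 in at least 1 of these, and all but Clcf1 lie above 0 on both axes; most other points lie near 0.

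Of the 18 nearest measured neighbours of the 9 genes on their chromosomes, none passed between genotypes under DMSO (limma; 3 at an unadjusted p below 0.05), with a median difference of 0.17. Cd2, next to Ptgfrn and a T cell adhesion receptor, differed most, by 1.77 ± 0.56 (limma, adjusted p = 0.249). Its IkL/L arrays lay above its WT arrays, 3.42-fold on average, so the lack of a call does not show that it was alike in both genotypes. Under GSI 1 passed, Krt8. With GSI on average 3 of the 18 rose and 5 fell, where 10.8% of all genes rose and 12.5% fell. Those that rose were Krt8, 4933433G08Rik (by 0.28) and Gm19325 (by 0.23), the last 2 near background at 3.44 to 4.25. Of those that fell, Cd2 was 5.67-fold lower, and Pus7l, beside Adamts20, fell by 1.84. Ttf2, beside Ptgfrn, fell by 0.94, Pxylp1, beside Spsb4, fell by 0.86, and Dnajb6, beside Il6, fell by 0.44. A probe set of Insyn2a, a gene that lies within Dock1 in RefSeq, was named after its values were seen. It read 4.82 and 5.21 with DMSO and 4.66 and 4.64 with GSI in WT, against 6.78 and 7.89 with DMSO and 8.08 and 7.86 with GSI in IkL/L. Among all probe sets it was higher in IkL/L by 2.32 ± 0.34 with DMSO (limma, adjusted p = 0.032) and by 3.32 ± 0.34 with GSI (limma, adjusted p = 0.00769). The other 2 probe sets of Insyn2a showed no such step, at 6.32 to 6.74 and at 3.81 to 4.11. Whether the signal belongs to Insyn2a or to Dock1 cannot be told apart with these data.

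The mean of the 9 genes was 4.78 and 4.60 with DMSO and 4.77 and 4.43 with GSI in WT, against 7.51 and 7.49 with DMSO and 6.62 and 6.78 with GSI in IkL/L. Dock1 followed it most closely over the 8 arrays (Pearson r = 0.988), then Ptgfrn (0.976) and Uaca (0.970), and Adamts20 least (0.652). The genes most like the mean were Psma8, a proteasome subunit known from the testis (r = 0.991), Prom1, a membrane glycoprotein of stem and progenitor cells (0.987), Cdc42ep4, an effector of CDC42 (0.986), and Lyplal1 (0.985). Next came Myh10, a non-muscle myosin heavy chain (0.983), Shroom4 (0.981), Ppic (0.976), Bex1, Gkap1 (0.974 each) and Spin4 (0.973). All 10 were picked for this likeness to a mean that, by the choice of the 9 genes, splits the 8 arrays by genotype. The values are therefore a description. Spin4 and Psma8 had differences of 3.10 each with DMSO, and 3.03 and 2.80 with GSI.

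Markers of other cells are given beside these results because the sort could hold some. The stromal mean differed more between replicates than between genotypes. So did Col1a2, which read 9.54 and 8.06 with DMSO and 10.65 and 7.88 with GSI in WT, against 9.66 and 8.22 with DMSO and 9.96 and 8.95 with GSI in IkL/L. Single markers went either way. Col3a1 was higher in IkL/L by 1.48 with DMSO and 1.59 with GSI, and Vcam1 by 1.03 and 1.66. Both had their IkL/L arrays above their WT arrays under each treatment without passing. Thbs1 differed by -0.83 and -0.64, and the median over the 28 was 0.14 and 0.23. Of 28 stromal markers 1, Pdgfrb, was higher in IkL/L with DMSO (1.22 ± 0.20; limma, adjusted p = 0.0236) and none with GSI. Pdgfrb read 8.80 and 9.28 with DMSO and 9.31 and 9.40 with GSI in WT. In IkL/L it read 10.19 and 10.33 with DMSO and 9.71 and 9.82 with GSI. It was thus higher on array 2 of each group, where the stromal mean was higher on array 1. Lum, Dlk1 and Timp3 lay between 3.39 and 4.42. With the stromal mean as a covariate the genotype differences under DMSO were 4.28 for Ptgfrn, 3.95 for Dock1 and 2.46 for Il6, and under GSI 3.60 for Il6. That fit draws on the gaps between replicates and on a mean that includes markers near background. The part of stromal cells in the genotype differences was not tested. Of 8 epithelial markers, given beside Krt18, none was higher in IkL/L. Cldn3, Cldn7, Elf3, Foxn1 and Ocln lay between 3.91 and 5.68 on all arrays, levels that genes of unrelated tissues also reach. Cldn4 averaged 6.80 with DMSO and 8.48 with GSI in WT, and rose by 1.55 with GSI on average. Its IkL/L arrays lay below its WT arrays, by -0.77 with DMSO and -1.01 with GSI, without passing (limma, adjusted p = 0.212 and 0.096). Epcam was lower (-2.65 with DMSO and -1.66 with GSI), as was Cdh1 (-3.09 and -3.29). These 2 had means of 8.49 and 10.12 in the sorted WT cells with DMSO, so which cells their signal came from cannot be told apart here. Myeloid and dendritic markers, given beside Il6, Rassf4 and Krt18, averaged 5.02 to 5.67 over the WT arrays. In IkL/L they averaged 5.46 and 5.49 with DMSO against 6.58 and 6.56 with GSI. Of 16 measured, 1 was higher in IkL/L with DMSO and 8 with GSI, where 129 and 172 of the 18193 genes were higher. By its mean this list was highest in IkL/L with GSI, where these 3 genes were highest too. The part of myeloid and dendritic cells in the result was not tested.

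**Figure D4:**
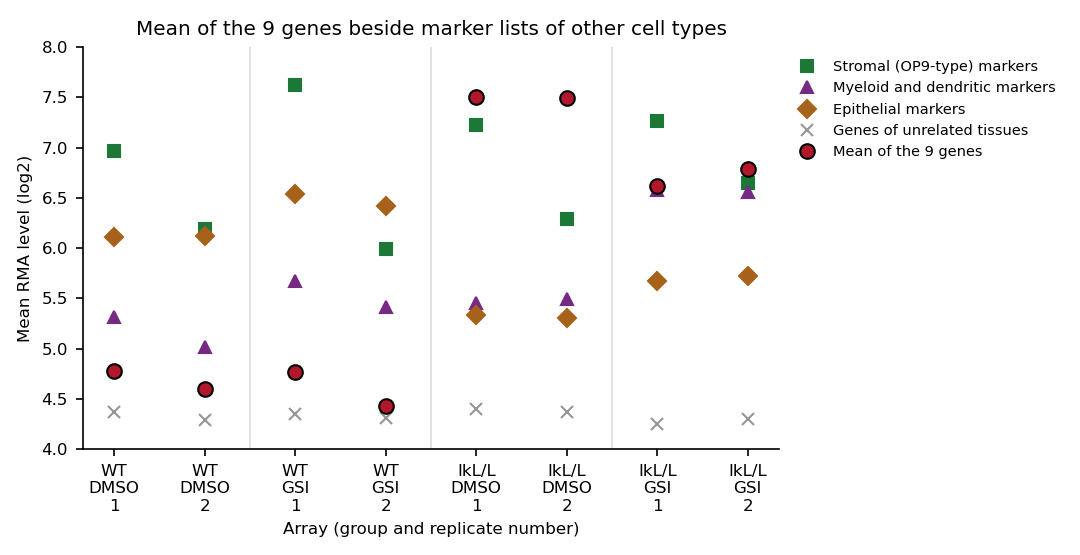
Mean log2 RMA level on each array of the 9 genes and of marker lists for stromal (28 genes), myeloid and dendritic (16), epithelial (8) and unrelated-tissue genes (11), each point an array. The 9 genes lay at 7.51 and 7.49 in IkL/L DMSO and at 4.43 to 4.78 in WT, while the stromal mean varied between replicates of every group and the myeloid mean was highest in IkL/L GSI.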

How the data were processed

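The deposited values are log2 levels that the authors made with RMA, per the submitters' processing notes. Its version, and whether the 8 arrays were summarised alone, are not given in the sources used here. Per the labels' protocols, RNA was amplified in a two-cycle assay. RMA's quantile step gives all arrays 1 distribution, so a change of most genes at once would not show. The number of arrays limits the precision.

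Groups came from the sample titles. Of 45101 probe sets, 34945 name 1 gene in the platform annotation; controls (64), probe sets naming several genes (932) and those not listed (9160) were left out. For 9010 genes with several probe sets the one with the highest mean was used, giving 18193 genes with no filter on low values. limma 3.58.1 in R 4.3.3 fitted the 4 group means over 8 arrays (eBayes with trend; 4 residual and 4.11 prior degrees of freedom), two-sided, with Benjamini-Hochberg adjustment over all genes and calls at an adjusted p below 0.05. Errors are limma standard errors (SE) or standard deviations (SD) of 2 arrays. The average GSI response is orthogonal to both contrasts that chose the 9 genes, so their errors are not shared, but for a gene flat in WT its sign follows from the IkL/L group in which the gene was high. It is therefore a description for these genes.

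The 9 genes, the lists of relatives and partners, and the marker lists were chosen with earlier results of these data known. Named were the 9 genes, up to 3 passing genes per list by size, passing neighbours, the 10 genes most like the mean (without Rik, Gm and accession symbols), Ikzf1, Dtx1, Hes1, Il2ra, Ptcra, Cd44, and leading stromal markers; others, such as Il6ra, Epcam and Insyn2a, were picked with their values known. The fits were tested on simulated data with known changes. Alternatives were the replicate block, other uses of probe sets, only genes above the median level, renewed quantile normalization, median centring, no trend, the stromal mean as covariate and leaving out each array; a group left with 1 array was assumed to vary like the others. Tables were made with pandas 2.3.3 in Python 3.11.15 and plots with matplotlib 3.10.9.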

Additional observations from a re-analysis of the deposited data

How the results depend on the processing

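Of 276 genotype values of the 9 genes under alternatives, 269 moved by less than the replicate spread and 7 by more. Most could not do otherwise, so the count is no measure of robustness. Several alternatives leave the difference itself unchanged, and leaving out 1 of 2 arrays always moves it by less than their SD. Averaging a gene's probe sets gave 2.33 and 1.24 (DMSO and GSI) for Ptgfrn, 2.02 and 1.67 for Dock1, and 0.95 and 1.86 for Rassf4, since the dim probe sets enter the mean. The sign changed in 3, all for Adamts20 under GSI, where the difference was near 0. How often a gene kept its side of the threshold in the average GSI response is no measure of robustness either. That response is a description for these genes, since its direction is tied to their choice. In it 8 of the 9 genes kept their side of the threshold in every alternative that measured them, and Il6 did in 7 of 15. The count of 8 was 2 among genes above the median level, which left only 3 of the 9, and 7 to 8 leaving out an array. Genes called in all were 6711 with every probe set and 2616 to 4642 leaving out an array, the lowest without IkL/L DMSO replicate 1. Relatives and partners called under DMSO (6) were 3 with every probe set, 10 with the replicate block, 12 with the stromal covariate and 0 to 7 leaving out an array. Under GSI (6) they were 3 above the median level, 12 with the stromal covariate and 2 to 5 leaving out an array. Neighbours called under DMSO (0 by limma, 3 at an unadjusted p below 0.05) were 1 with every probe set and 1 with averaged probe sets, both Insyn2a, 1 with the replicate block and 0 to 0 leaving out an array. Under GSI (1) they were 3 with every probe set, 2 with averaged probe sets, 0 above the median level and 0 to 1 leaving out an array, with 0 without any of the 4 GSI arrays. Apart from the probe set choices, the cause was not tested. Same-numbered arrays deviated together among WT DMSO, WT GSI and IkL/L DMSO (r = 0.71, 0.58 and 0.56) and not with IkL/L GSI (r from -0.11 to 0.02), so the numbers are not known to pair all groups. The stromal mean was higher on array 1 than on array 2 of each of the 4 groups. Low signal limits what can be said of Adamts20 and of the WT level of all but Uaca.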
